A study of Mus musculus with 14 samples.

Results

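The 10 genes described here, Egr1, Egr2, Egr3, Fos, Fosb, Jun, Junb, Jund, Ier2 and Atf3, encode immediate early transcription factors, and they were taken from the 55414 rows of the count table by their gene symbols alone. The low-count filter kept 9 of the 10 among the 12851 genes tested, and Fosb was left out. RNA had been read from the 3′ end of transcripts in 14 libraries of primary bone marrow-derived macrophages (pBMDMs) after 24 h in culture supernatant or in medium. The macrophages were wildtype cells of C57BL/6N mice a few weeks old that had been differentiated with M-CSF, and all groups share these features. Supernatants came from Pfa1 mouse embryonic fibroblasts (MEFs), 1 cell line in which 4-hydroxytamoxifen (4OHT) deletes GPX4, the lipid peroxide reductase whose loss starts ferroptosis. There were 3 libraries each of pBMDMs exposed to supernatant of untreated MEFs (ctrl), of ferroptotic 4OHT-treated MEFs (4OHT, labelled Tam), of MEFs given 4OHT with the ferroptosis inhibitor Ferrostatin-1 (4OHT+Fer1, labelled Tam Fer1) and of MEFs given Ferrostatin-1 alone (Fer1). A further 2 libraries, of replicate numbers 1 and 2, were of macrophages in fresh medium never conditioned by MEFs (medium). GPX4 was deleted in the MEFs and not in the sequenced cells, so these libraries hold no check of the deletion. Compounds carried over with a supernatant and products of the MEFs cannot be told apart in this design.

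Immediate early genes are transcribed within minutes of a stimulus from factors that the cell already holds, and their transcripts are short-lived. In macrophages they respond to growth factors, adhesion, microbial products and stress through the MAP kinases, SRF with its ternary complex partners, and CREB. EGR proteins are zinc finger factors, FOS and JUN proteins pair through leucine zippers to form AP-1, ATF3 is a stress-responsive factor of the same bZIP class that often represses inflammatory genes, and Ier2 encodes a nuclear protein of the early response. A library taken after 24 h shows the standing level of these transcripts and not an early peak.

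Total counts per library lay between 7823051 and 11052352 with a median of 9490457, and 3 counts, taken as the smallest amount that can be told from none, stood for 0.271 to 0.383 CPM. Levels below are CPM, the counts of a gene per library total set to a common size, scaled by TMM, edgeR's correction for library composition. The 8 macrophage markers, Lyz2, Csf1r and Adgre1 among them, summed to between 18862 and 43878 CPM, and all 8 could be tested. Lymphocyte and mast cell markers summed to at most 0.531 CPM in any library, and dendritic cell markers to between 2.61 and 22.3 CPM. Fibroblast markers summed to between 15.5 and 121 CPM. Col1a2 and Col1a1 were present, with up to 612 and 406 counts in a library, and Thy1 was at 0 in ctrl, Fer1, 4OHT+Fer1 and medium. Neutrophil and precursor markers summed to 39.1 and 56.5 CPM in medium and to between 2.87 and 28.2 CPM in the supernatant libraries. Among them S100a9 and S100a8 reached 221 and 189 counts in a library, and Ly6g and Elane were at 0 throughout. Mitochondrial genes took 8.50 to 10.6% of the counts in the 4 supernatant libraries of replicate number 3, and 4.53 to 6.61% in the other 8 supernatant libraries. In such bulk samples fewer cells of a type and less RNA per cell cannot be told apart.

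The promoters of 4 of the genes are shown because Fos, Junb and Atf3 were lower in ctrl than in medium, as described below, whereas Jun did not pass that test. Each line holds the 250 bases before the RefSeq transcript start on GRCm38.p6, written 5′ to 3′ on the gene's strand. Capitals mark TGACG, the core of the cAMP response element that CREB and ATF proteins can bind, or its reverse complement CGTCA.
Fos, chr12:85473640-85473889, plus strand: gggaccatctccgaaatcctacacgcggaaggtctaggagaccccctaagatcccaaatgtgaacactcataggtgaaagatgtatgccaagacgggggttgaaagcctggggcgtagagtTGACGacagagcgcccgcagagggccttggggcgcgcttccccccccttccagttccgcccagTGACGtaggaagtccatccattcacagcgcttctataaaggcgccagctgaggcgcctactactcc
Junb, chr8:84978749-84978998, minus strand: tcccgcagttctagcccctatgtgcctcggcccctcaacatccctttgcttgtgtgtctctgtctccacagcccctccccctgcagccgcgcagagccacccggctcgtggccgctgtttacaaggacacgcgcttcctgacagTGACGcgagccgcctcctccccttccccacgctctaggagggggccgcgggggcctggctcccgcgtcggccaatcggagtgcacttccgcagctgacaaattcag
Atf3, chr1:191183334-191183583, minus strand: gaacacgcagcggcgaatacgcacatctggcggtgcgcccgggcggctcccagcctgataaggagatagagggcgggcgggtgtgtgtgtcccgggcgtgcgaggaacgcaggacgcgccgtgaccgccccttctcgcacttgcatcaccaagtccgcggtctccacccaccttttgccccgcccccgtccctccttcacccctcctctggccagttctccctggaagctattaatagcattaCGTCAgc
Jun, chr4:95052223-95052472, minus strand: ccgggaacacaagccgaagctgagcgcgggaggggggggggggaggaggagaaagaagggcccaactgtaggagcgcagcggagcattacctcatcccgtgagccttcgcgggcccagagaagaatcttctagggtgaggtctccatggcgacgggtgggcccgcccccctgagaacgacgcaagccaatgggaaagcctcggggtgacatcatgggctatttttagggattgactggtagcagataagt

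Counted back from the base before the transcript start, which is -1, the motif began at -129 and -66 in Fos and at -106 in Junb, and the copy on the other strand of Atf3 began at -7. The Atf3 window lies inside the gene as GENCODE M21 draws it, and the last 7 bases of the window, which hold this copy, are annotated there as an Atf3 exon. The Jun window held no TGACG but holds tgacatca, a near match to the whole element TGACGTCA, and near matches were not searched for in any window. RefSeq windows were at hand for 7 of the 10 genes, not for Egr1, Egr3 and Ier2. On either strand TGACG stood in those of 5 genes, Egr2, Fos, Fosb, Junb and Atf3, and in 17.8% of the 32851 windows of the same length. These are unlike units, since the share is counted per window and a gene counted when any of its windows matched. Egr2 has 5 windows, 3 of them with TGACG. Of the genes with this motif, Egr2 did not pass the test of ctrl against medium and Fosb was not tested. Egr1, which passed, has no window, and a link of the motif with the calls was not tested. The whole element TGACGTCA, which holds that core, was in none of the 7 and in 1.55% of all windows, and the AP-1 site TGANTCA was in none of the 7 and in 6.75%. The EGR site GCGNGGGCG was found in Fosb and in 4.70% of all windows, and the CArG box, to which SRF binds, in Egr2 and in 1.47%. These are matches of letters, and no binding was measured here.

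**Figure D1:**
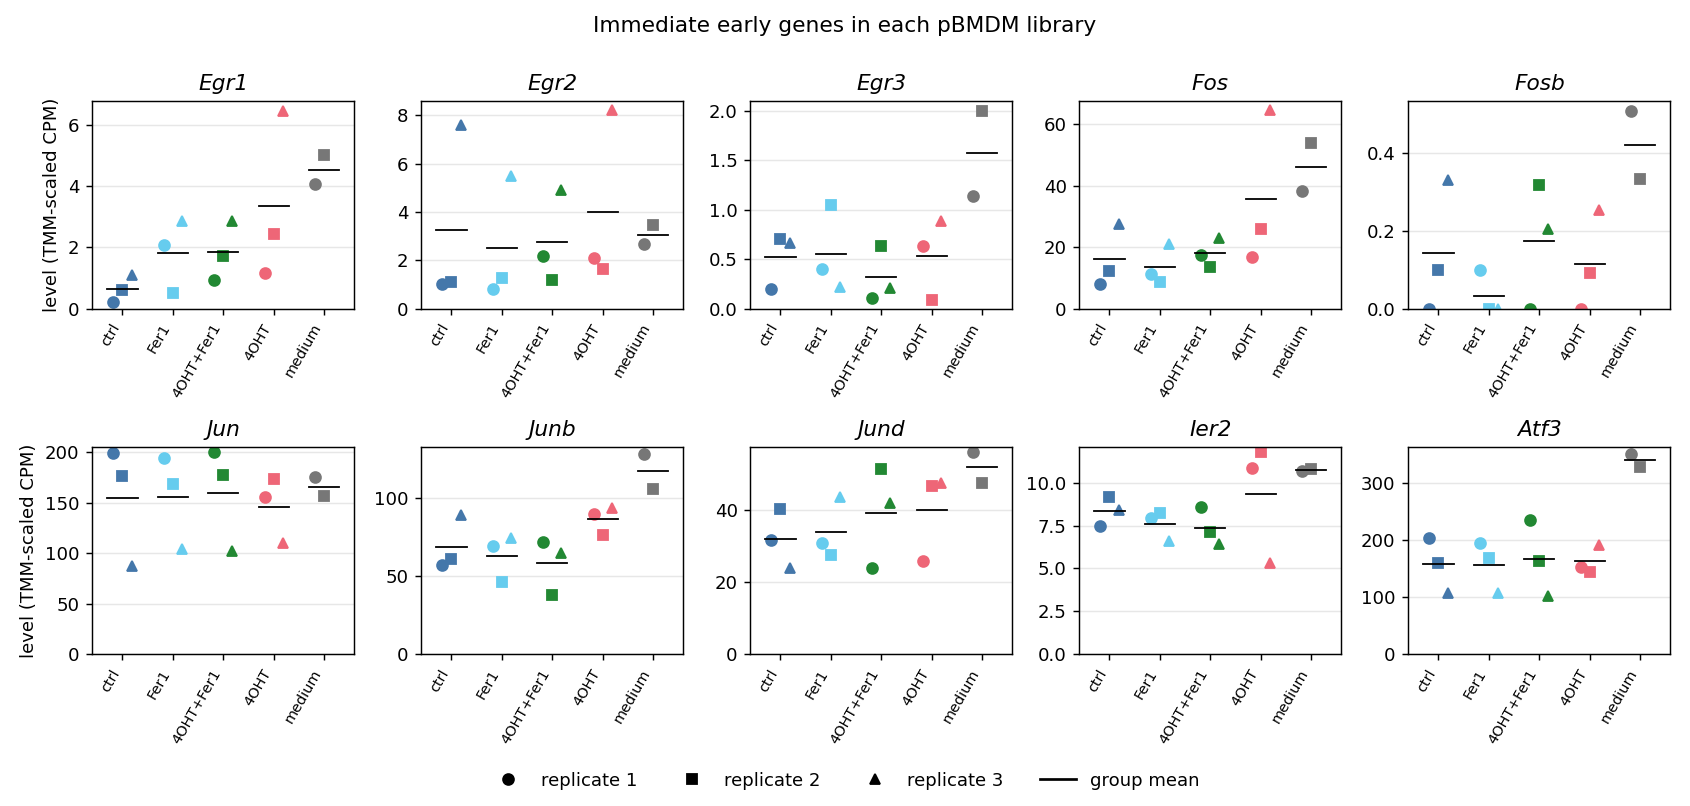
Level of each of the 10 genes in every library, as TMM-scaled CPM on a linear axis that starts at 0 and differs between panels, with groups on the x axis. Symbols give the replicate number and bars the group mean. Among the tested genes, both medium libraries lie above all ctrl libraries for Egr1, Egr3, Fos, Junb, Jund, Ier2 and Atf3. Replicate 3 is the highest library of each supernatant group for Egr1, Egr2 and Fos.

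Among the EGR genes, Egr1 (ENSMUSG00000038418), on the plus strand of chromosome 18 of GRCm38 from 34859823 to 34864984, differed most between the groups. In ctrl it stood at 0.203, 0.603 and 1.10 CPM in replicates 1, 2 and 3, from 2, 6 and 10 counts. In medium it stood at 4.06 and 5.01 CPM in replicates 1 and 2, from 32 and 45 counts. Both medium libraries were above all ctrl libraries, 1 of which was under the limit of 3 counts. The level in ctrl was 0.0922 times that in medium (log2 fold change -3.44, SE 0.60, edgeR adjusted p = 0.00267). In the 4OHT libraries Egr1 reached 1.16, 2.45 and 6.45 CPM, above its ctrl library for each of the 3 replicate numbers. This difference from ctrl did not pass the test (log2 fold change 2.29, SE 0.55, edgeR adjusted p = 0.0677). Fer1 libraries had 2.08, 0.521 and 2.86 CPM of Egr1 and 4OHT+Fer1 libraries 0.941, 1.70 and 2.87 CPM, and both groups overlapped ctrl and 4OHT.

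Egr2 (ENSMUSG00000037868; chromosome 10, 67535475 to 67542188, plus strand), which in macrophages is known as a marker of alternative activation, varied more between replicate numbers than between groups. Its ctrl libraries held 1.01, 1.11 and 7.62 CPM and its 4OHT libraries 2.11, 1.63 and 8.23 CPM in replicates 1, 2 and 3. Fer1 had 0.794, 1.25 and 5.51 CPM of Egr2, 4OHT+Fer1 had 2.20, 1.17 and 4.91 CPM, and medium had 2.67 and 3.45 CPM. Replicate 3 was thus the high library of each supernatant group, and without it all libraries of the 4 supernatant groups lay under both medium libraries. Egr2 in ctrl against medium gave a log2 fold change of -1.23 (SE 0.42, edgeR adjusted p = 0.0838), and without the replicate block it was 0.073.

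Egr3 (ENSMUSG00000033730; chromosome 14, 70077203 to 70082614, plus strand), a close relative of EGR1 and EGR2, was scarce, with 81 counts over all libraries and at most 18 in any. It stood at 1.14 and 2.00 CPM in medium and at no more than 1.04 CPM in the supernatant libraries, where 6 of 12 libraries had at most 4 counts. The 2 groups ctrl and medium did not overlap for Egr3, yet the difference did not pass the test (log2 fold change -1.61, SE 0.86, edgeR adjusted p = 0.283). Egr3 passed the filter with 2 of 14 libraries, 1 of medium and 1 of Fer1, above its limit of 1.05 CPM before TMM scaling. The 95% interval of the log2 fold change, from -3.47 to 0.25, shows how little a difference in Egr3 can be read at this depth.

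Fos (ENSMUSG00000021250; chromosome 12, 85473890 to 85477273, plus strand), the AP-1 subunit whose promoter is printed above, was found in all 14 libraries. In ctrl it had 8.10, 12.4 and 27.7 CPM, and in medium 38.4 and 53.8 CPM. All ctrl libraries lay under both medium libraries, and Fos in ctrl was 0.237 times its level in medium (log2 fold change -2.08, SE 0.30, edgeR adjusted p = 0.000887). With 4OHT supernatant Fos stood at 16.8, 26.0 and 64.8 CPM, above ctrl at every replicate number by 1.03, 1.06 and 1.22 on the log2 scale. The groups overlapped because of replicate 3 in ctrl, and the difference did not pass the test (log2 fold change 1.12, SE 0.27, edgeR adjusted p = 0.0652). Fer1 libraries held 11.3, 8.66 and 21.1 CPM of Fos and 4OHT+Fer1 libraries 17.5, 13.6 and 22.9 CPM, below the medium level in every library.

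Fosb (ENSMUSG00000003545; chromosome 7, 19302696 to 19310051, minus strand), the FOS relative known from neurons, had 20 counts in all. Medium held 4 and 3 of these, and no supernatant library held more than 3. Fosb was at 0 counts in 5 of the 14 libraries, where 3 counts is the most that a count of 0 allows, so no level or difference of Fosb could be read at this depth.

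Jun (ENSMUSG00000052684; chromosome 4, 95049034 to 95052222, minus strand), the JUN family member that pairs with FOS in classical AP-1, showed no difference past the test between any of the groups compared. Its ctrl libraries had 199, 177 and 87.1 CPM, its 4OHT libraries 156, 173 and 110.0 CPM and its medium libraries 176 and 156 CPM. Jun in ctrl against medium gave a log2 fold change of 0.10 with a 95% interval from -0.25 to 0.45 (edgeR adjusted p = 0.777), and 4OHT against ctrl gave -0.015 with an interval from -0.32 to 0.29 (edgeR adjusted p = 0.985). Both intervals exclude a doubling of Jun, which is 1 on this scale. Fer1 had 194, 169 and 104 CPM of Jun and 4OHT+Fer1 had 200, 177 and 102 CPM, so that replicate 3 was the lowest library of each supernatant group. Junos, a gene on the opposite strand, overlaps Jun, and whether reads were counted by strand is not given in the sources used here.

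Junb (ENSMUSG00000052837; chromosome 8, 84974484 to 84978718, minus strand), an AP-1 subunit that often opposes JUN, was lower in ctrl than in medium. Its ctrl libraries had 56.8, 60.7 and 88.9 CPM and its medium libraries 128 and 106 CPM, with no overlap. The level in ctrl was 0.539 times that in medium (log2 fold change -0.89, SE 0.20, edgeR adjusted p = 0.0143). In 4OHT Junb stood at 89.7, 76.4 and 93.8 CPM, and in 4OHT+Fer1 at 71.6, 37.9 and 64.6 CPM, so that all 4OHT libraries lay above all 4OHT+Fer1 libraries. That difference did not pass the test (log2 fold change 0.61, SE 0.18, edgeR adjusted p = 0.158), and the share of all genes so separated was not counted. Fer1 libraries had 68.9, 46.2 and 74.1 CPM of Junb. Prdx2 overlaps Junb on the opposite strand.

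Jund (ENSMUSG00000071076; chromosome 8, 70698949 to 70700616, plus strand), the JUN member that is made in most resting cells, had 31.7, 40.3 and 24.0 CPM in ctrl and 56.0 and 47.6 CPM in medium. The 2 groups did not overlap, but the difference did not pass the test (log2 fold change -0.77, SE 0.32, edgeR adjusted p = 0.154). Its 4OHT libraries ran from 25.9 to 47.5 CPM, its 4OHT+Fer1 libraries from 24.0 to 51.3 CPM and its Fer1 libraries from 27.4 to 43.5 CPM. Gm11175 overlaps Jund on the opposite strand.

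Ier2 (ENSMUSG00000053560; chromosome 8, 84661331 to 84662852, minus strand) was the steadiest of the genes. It stood at 10.7 and 10.8 CPM in medium, between 7.50 and 9.15 CPM in ctrl, between 6.61 and 8.24 CPM in Fer1 and between 6.45 and 8.57 CPM in 4OHT+Fer1. The 4OHT libraries spread most, at 10.9, 11.8 and 5.31 CPM. Ier2 in ctrl against medium gave a log2 fold change of -0.23 with a 95% interval from -0.82 to 0.37 (edgeR adjusted p = 0.677).

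Atf3 (ENSMUSG00000026628; chromosome 1, 191170296 to 191218039, minus strand) was highest in medium, at 351 and 328 CPM. The 12 supernatant libraries held between 103 and 234 CPM of Atf3, all under both medium libraries. In ctrl it had 204, 159 and 108 CPM, which is 0.503 times the medium level (log2 fold change -0.99, SE 0.27, edgeR adjusted p = 0.0337). In 4OHT it had 152, 145 and 192 CPM, and in 4OHT+Fer1 234, 162 and 103 CPM. Replicate 3 was the highest Atf3 library of the 4OHT group and the lowest of ctrl, Fer1 and 4OHT+Fer1. Gm24748 overlaps Atf3 on the opposite strand.

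Read as a comparison of live MEF supernatant with medium, ctrl was lower for 4 of the 9 tested genes, Egr1, Fos, Junb and Atf3, and higher for none. Of all 12851 genes, 10.9% passed the same test in either direction and 5.58% were lower in ctrl. DESeq2 called 4 of the 9, and 6 of the 9 had an unadjusted p under 0.05 in edgeR, the further 2 being Egr2 and Jund. Of all genes tested, 24.0% had such an unadjusted p. All libraries of ctrl lay under both of medium for 7 of the 9 tested genes, against 17.1% of all genes tested. Egr2 and Jun were the exceptions. Egr3, which is among the 7, passed the filter through 1 medium and 1 Fer1 library, so its place in this count is not independent of its level in medium. Fosb is not counted, since replicate 3 of ctrl and replicate 2 of medium both held 3 counts of it. Within replicate numbers 1 and 2, log2 CPM in ctrl minus medium was -3.36 and -2.68 for Egr1, -2.21 and -2.10 for Fos, -1.17 and -0.80 for Junb, and -0.78 and -1.04 for Atf3. The median log2 fold change of all genes was -0.01.

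These 4 calls rest on the replicate number as a block, since medium has no library of number 3. Without the block none of the 4 passed edgeR's test, with adjusted p of 0.0756 for Egr1, 0.169 for Fos, 0.170 for Junb and 0.0888 for Atf3. Leaving out all libraries of number 1 kept Fos alone (edgeR adjusted p = 0.0241), and leaving out number 2 kept none, while log2 fold changes of the 4 genes stayed between -3.72 and -0.69 over all such omissions. Without replicate 1 of ctrl, or without either medium library, Junb and Atf3 lost their calls (edgeR adjusted p from 0.0676 to 0.231) and Egr1 and Fos kept theirs, and without replicate 2 or 3 of ctrl Atf3 lost its call as well (0.101 and 0.0544). The neutrophil marker sum, from 39.1 to 56.5 CPM in medium, was from 2.87 to 17.4 CPM in ctrl, 3 of 8 macrophage markers and 2 of 4 tested fibroblast markers were lower in ctrl than in medium, and the part of these in the result was not tested.

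**Figure D2:**
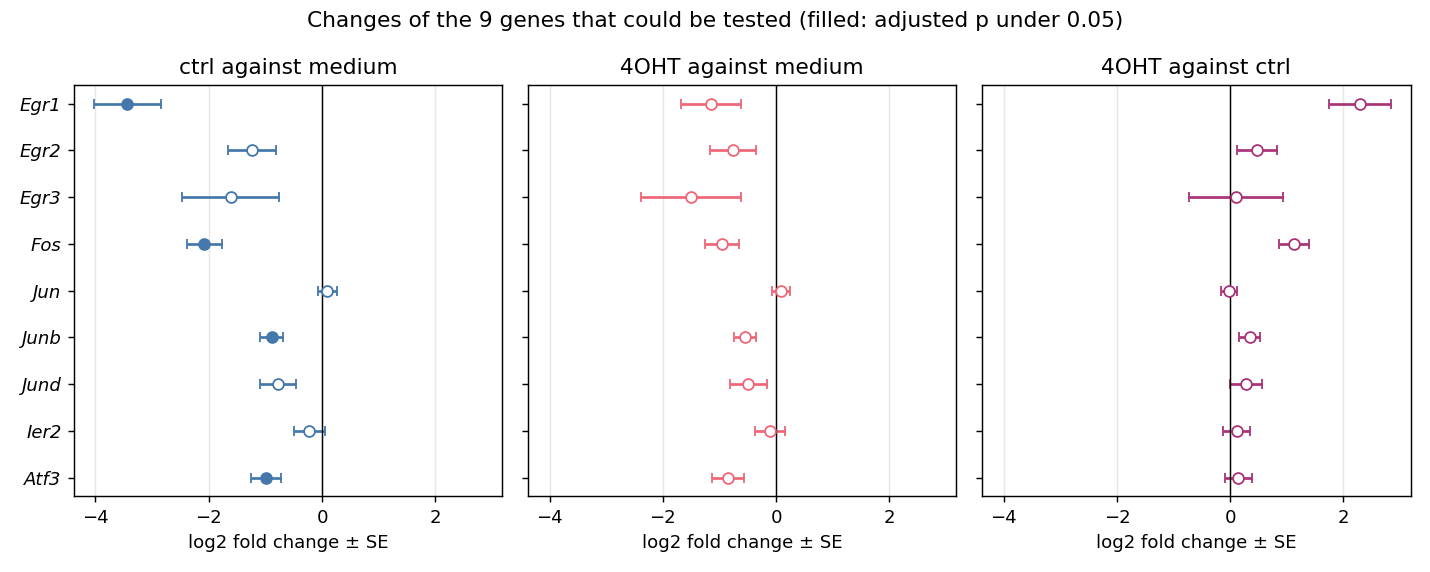
Log2 fold change with its SE for the 9 genes tested, in ctrl against medium (left), 4OHT against medium (middle) and 4OHT against ctrl (right). Filled points passed edgeR's test at an adjusted p under 0.05, which Egr1, Fos, Junb and Atf3 did in the left panel and no gene did in the others. The 3 comparisons share libraries.

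Ferroptotic supernatant was compared with live supernatant, and none of the 9 tested genes passed edgeR's test in 4OHT against ctrl, where 1.49% of all genes did. Egr1 and Fos had an unadjusted p under 0.05, as 10.8% of all genes tested did. Egr1 alone had all 4OHT libraries above all ctrl libraries, as 5.20% of the tested genes did. Egr1 was higher in 4OHT by 1.72, 1.71 and 2.34 in log2 CPM at replicate numbers 1, 2 and 3. DESeq2 called both genes, with adjusted p of 0.00775 for Egr1 and 0.00551 for Fos, and so did edgeR without the low-count filter, with 0.0154 and 0.0144. DESeq2 also called more genes over the whole table here, as given in the last section. Calls over all genes without the filter are not reported here. No omission of a library or of a replicate number made either call in edgeR, and their log2 fold changes ranged from 2.01 to 2.56 for Egr1 and from 0.90 to 1.32 for Fos. Their call in this comparison therefore depends on the tool and the filter, and their direction did not change under any alternative run.

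For the other genes the fitted differences of 4OHT from ctrl were 0.47 for Egr2, 0.34 for Junb, 0.28 for Jund and 0.14 for Atf3 on the log2 scale, with edgeR adjusted p from 0.551 to 0.900. Atf3 was lower in 4OHT than in ctrl at replicate numbers 1 and 2, by -0.43 and -0.14 in log2 CPM, and higher at number 3, by 0.83, and without replicate 3 of 4OHT its log2 fold change was -0.30.

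Blocking the death of the MEFs gave the comparison of 4OHT with 4OHT+Fer1, in which none of the 9 genes was called by edgeR or by DESeq2, against 1.35% of all genes by edgeR. Fos (log2 fold change 0.79, edgeR adjusted p = 0.232) and Junb (0.61) had an unadjusted p under 0.05, as 11.8% of all genes tested did. For Fos the difference in log2 CPM at replicate numbers 1, 2 and 3 was -0.06, 0.93 and 1.49, so that it was not present at number 1. For Junb it was 0.32, 1.01 and 0.54. Egr1 had a log2 fold change of 0.74 with a 95% interval from -0.32 to 1.79 (edgeR adjusted p = 0.624).

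In 4OHT+Fer1 against ctrl none of the 9 genes passed either tool, with 0.0311% of all genes called by edgeR, and Egr1 had a log2 fold change of 1.55 (edgeR adjusted p = 0.948). Fer1 against ctrl gave no call among the 9 by either tool, and 0% of all genes by edgeR, of which 146 had an unadjusted p under 0.05. Egr1 was among these, with a log2 fold change of 1.59 (SE 0.57, edgeR adjusted p = 1), from differences of 2.47, -0.15 and 1.22 in log2 CPM at replicate numbers 1, 2 and 3. 4OHT+Fer1 against Fer1 gave no call among the 9 by either tool and 0.0233% of all genes by edgeR, and none of the 9 had an unadjusted p under 0.05 there. Whether the step from ctrl to 4OHT differed from the step from Fer1 to 4OHT+Fer1 was tested as an interaction, in which 0.0311% of all genes and none of the 9 passed edgeR's test, and none of the 9 passed DESeq2. Egr1 had the 1 unadjusted p under 0.05 in it (log2 difference 2.33, 95% interval 0.69 to 3.96, edgeR adjusted p = 0.519).

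Against medium, the 4OHT libraries were lower in fitted level for 8 of the 9 genes, but none passed edgeR's test, where 4.26% of all genes did. The log2 fold changes were -1.15 for Egr1, -0.95 for Fos, -0.55 for Junb and -0.85 for Atf3. These 4 had an unadjusted p under 0.05, as 15.8% of all genes tested did. All 4OHT libraries lay under both medium libraries for 4 of the 9 tested genes, Egr3, Junb, Jund and Atf3, against 13.8% of all genes tested. Fosb, with too few counts to read, is left out of this count. Egr3 is in this count, though it passed the filter through 1 medium and 1 Fer1 library. The spread of 4OHT replicate 3 bears on this count, since Fos in that library, at 64.8 CPM, was above both medium libraries. Without replicate 3 of 4OHT, Atf3 passed (log2 fold change -1.19, edgeR adjusted p = 0.00130), and without all libraries of number 3, Atf3 and Fos passed. DESeq2 called Fos (adjusted p = 0.0452), and a fit of only the 4OHT and medium libraries called Egr1, Fos, Junb and Atf3, all lower in 4OHT, while its calls over all genes rose from 548 of 12851 to 1470 of 12149. The comparisons of ctrl and of 4OHT with medium share both medium libraries, and that of 4OHT with ctrl shares libraries with each of them.

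**Figure D3:**
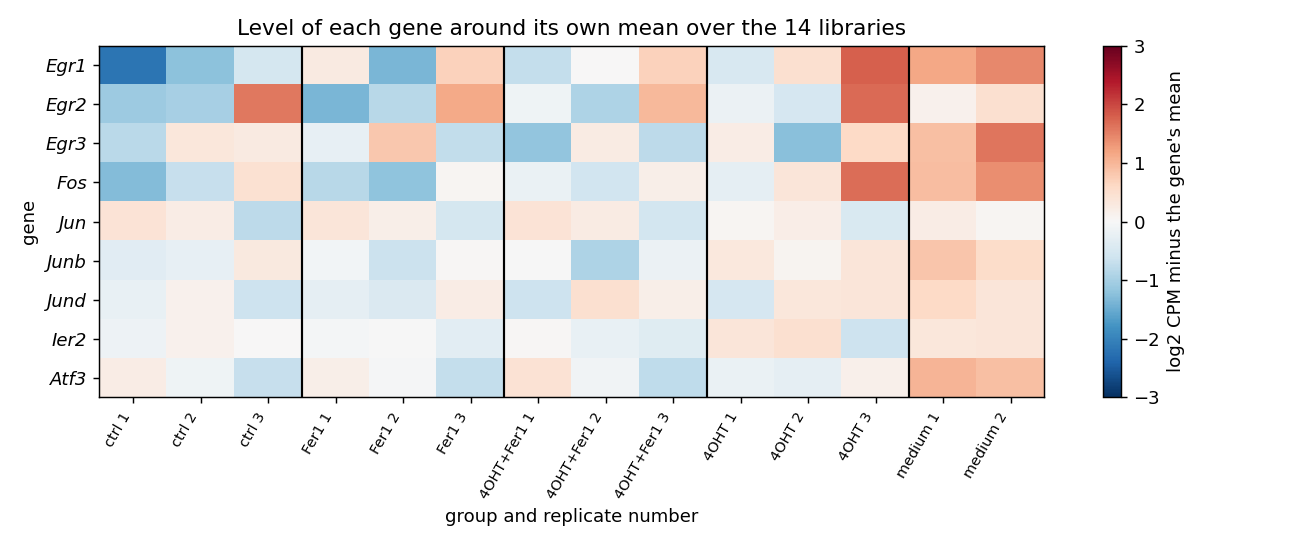
Log2 CPM of each of the 9 tested genes minus its own mean over the 14 libraries, with libraries in columns by group and replicate number. Red is above and blue below the gene's mean, on a scale from -3 to 3. All 9 genes are above their means in both medium libraries. The columns of replicate 3 are red for Egr2 and blue for Jun in all supernatant groups.

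Ordered by group mean, medium came out highest for 9 of the 10 genes, the exception being Egr2, whose mean was highest in 4OHT. These means leave out the replicate block, and medium has no library of number 3. For Jun the fitted level was instead higher in ctrl (log2 fold change 0.10) and 4OHT (0.08) than in medium, neither past the test. How many of all genes have their highest mean in medium was not counted. The step from medium to the next group was free of overlap for Egr3, Fosb, Junb, Jund and Atf3, though the counts of Fosb are too few to rank its groups. The share of all genes with such a step was not counted. All other neighbours in the order of group means overlapped, for every gene. Among the 4 supernatants ctrl was the lowest group mean for Egr1 (0.637 CPM ± 0.452, SD, n = 3) and Jund (32.0 CPM ± 8.18, SD, n = 3), and Fer1 for Egr2 and Fos.

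Replicate number 3 stood apart for several of the genes. It was the highest library of all 4 supernatant groups for Egr1, Egr2 and Fos, as it was for 9.16% of the tested genes, and the lowest of all 4 for Jun, as for 7.61%. The sharpest case was Egr2, which ran from 4.91 to 8.23 CPM in the 4 libraries of number 3 and from 0.794 to 2.20 CPM in the other 8 supernatant libraries. Jun ran from 87.1 to 110.0 CPM in the former and from 156 to 200 CPM in the latter. Libraries of number 3 also had the higher mitochondrial share given above, whose part in these differences was not tested.

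**Figure D4:**
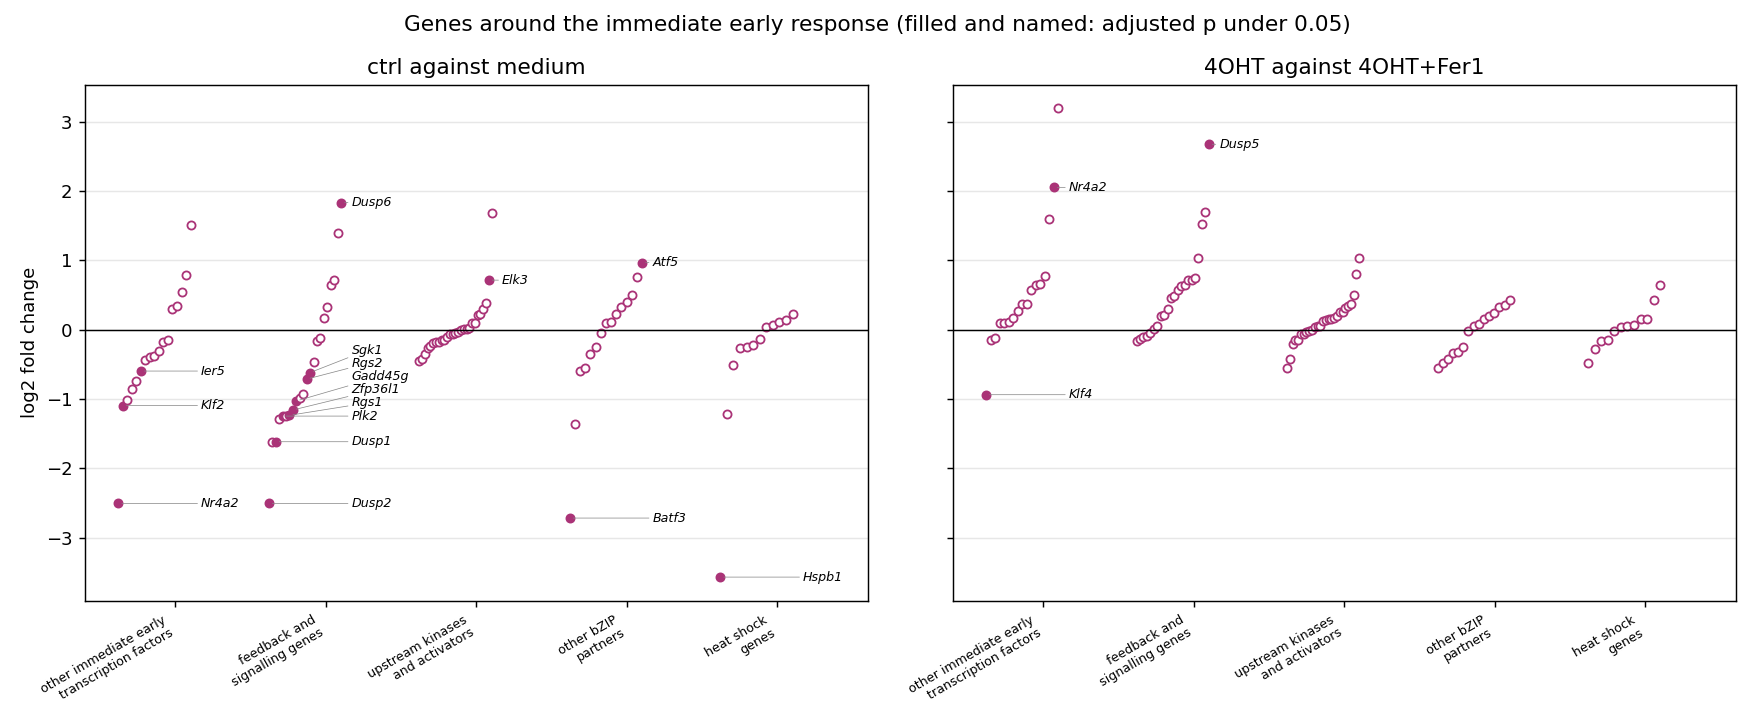
Log2 fold change of each tested gene of 5 related lists in ctrl against medium (left) and 4OHT against 4OHT+Fer1 (right), sorted within a list. Filled, named points passed edgeR's test at an adjusted p under 0.05. The 3 named early factors at left are negative, and of the 9 named feedback and signalling genes 8 are negative and Dusp6 is positive.

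Other genes around the early response were read from 5 lists. Of 21 other immediate early transcription factors 17 could be tested, and 3 of them were lower and none higher in ctrl than in medium, where 10.9% of all genes were called and 5.58% were lower. These were Nr4a2, an orphan nuclear receptor (log2 fold change -2.50), Klf2, a Kruppel-like factor that keeps macrophages quiescent (-1.09), and Ier5 (-0.60). The median of the 17 was -0.38. Of 24 feedback and signalling genes 22 were tested, 8 being lower and 1 higher, with a median of -0.82, beside the same shares of all genes and their median of -0.01. The dual-specificity phosphatases that switch off MAP kinases went in both directions, with Dusp1 (-1.61) and Dusp2 (-2.50) lower and Dusp6 (1.83) higher in ctrl. Zfp36l1, which encodes an mRNA decay factor, was lower (-1.16), and so were Gadd45g (-1.03), Rgs1 (-1.23), Rgs2 (-0.71), Plk2 (-1.25) and Sgk1 (-0.62). All of these were called by edgeR with adjusted p from 0.000952 to 0.0480. No single library decided the direction of these genes. All of them, Dusp1 included (edgeR adjusted p = 0.0755 and 0.0920), lost their call without all libraries of number 1 and without those of number 2. Every one of them but Dusp1 lost its call without at least 1 single library: replicate 1 of medium for Dusp2 (edgeR adjusted p = 0.130), replicate 2 of medium for Nr4a2 (0.0564) and Zfp36l1 (0.0507), either medium library for Rgs2 (0.148 and 0.0762), and either medium library and at least 1 ctrl library for Klf2, Ier5, Gadd45g, Rgs1, Plk2, Sgk1 and Dusp6 (0.0515 to 0.360). Without the replicate block Dusp1, Nr4a2, Klf2 and Rgs2 still passed, and Dusp2, Ier5, Zfp36l1, Gadd45g, Rgs1, Plk2, Sgk1 and Dusp6 did not.

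Dusp1 had 11.1, 16.2 and 15.9 CPM in ctrl, 25.4, 22.1 and 19.2 CPM in 4OHT and 42.4 and 45.9 CPM in medium, with no overlap between the 3 groups. It is shown because of its calls, and how many of all genes have such an order was not counted. Nr4a2 had 1.52, 1.11 and 0.883 CPM in ctrl and 5.84 and 6.90 CPM in medium.

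The machinery upstream of these genes was read the same way. Of 28 kinases and activators 27 were tested, and 1 was called in ctrl against medium, Elk3, a ternary complex factor that can repress, which was higher in ctrl (log2 fold change 0.71, edgeR adjusted p = 0.0370). That is under the 10.9% of all genes, and the median of the 27 was -0.05. Of 15 other bZIP factors 2 were called, Batf3 being lower (-2.71, edgeR adjusted p = 0.00215) and Atf5 higher (0.97, edgeR adjusted p = 0.0256), with a median of 0.10. These 2 of 15, and the 1 of 12 heat shock genes below, stand beside 10.9% of all genes, and no difference from that share was tested. Batf3 had 0.709, 0.804 and 0.663 CPM in ctrl and 4.83 and 3.34 CPM in medium. Of 12 heat shock genes, which can mark stress in handling, Hspb1 was lower in ctrl (-3.57, edgeR adjusted p = 0.0142) with at most 32 counts in any library, and the median of the 12 was -0.18. Batf3, like the other 3, lost its call without all libraries of number 1 (edgeR adjusted p = 0.142) or of number 2 (0.0753). Without a single library Batf3 kept it, Atf5 lost it without replicate 1 or 2 of ctrl or either medium library (edgeR adjusted p from 0.0817 to 0.212), Elk3 without replicate 1 or 3 of ctrl or either medium library (0.0515 to 0.344), and Hspb1 without either medium library (0.145 and 0.0824).

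In 4OHT against 4OHT+Fer1 the same lists gave 3 calls, 2 among the 17 early factors and 1 among the 22 feedback genes, where 1.35% of all genes were called. Nr4a2 was higher in 4OHT (3.90, 4.26 and 3.16 CPM against 0.523, 0.637 and 1.64 CPM, log2 fold change 2.05, edgeR adjusted p = 0.0394). Dusp5, a phosphatase that acts on ERK in the nucleus, was higher too (5.06, 5.53 and 4.43 CPM against 0.523, 0.956 and 0.921 CPM, log2 fold change 2.67, edgeR adjusted p = 0.0132). Klf4, a Kruppel-like factor, was lower (41.0, 32.4 and 26.6 CPM against 95.9, 54.7 and 45.2 CPM, log2 fold change -0.94, edgeR adjusted p = 0.0476). None of the 3 pairs of groups overlapped, but these genes were picked by their calls in this same comparison. How many of all genes had no overlap there was not counted. Without the replicate block Dusp5 still passed (edgeR adjusted p = 0.0430), and Nr4a2 (0.0938) and Klf4 (0.225) did not. Leaving out single libraries ended the call of Nr4a2 without replicates 1 or 2 of 4OHT or any replicate of 4OHT+Fer1, that of Dusp5 without replicates 1 or 2 of 4OHT or replicate 3 of 4OHT+Fer1, and that of Klf4 without any 1 of the 6, with the direction kept in each and edgeR adjusted p from 0.0537 to 0.197.

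In 4OHT against medium, Dusp1 (log2 fold change -0.98), Zfp36l1 (-0.79), Gadd45g (-1.24) and Rgs2 (-0.75) were called lower in 4OHT, and no gene of the other 4 lists was called, where 4.26% of all genes were. Each lost its call without either medium library and without 1 or more 4OHT libraries (replicates 1, 2 or 3 for Dusp1, 1 or 2 for Gadd45g and Rgs2, 1 or 3 for Zfp36l1, with edgeR adjusted p from 0.0622 to 0.376), and none of the 4 passed without the replicate block (0.0538 to 0.680). 4OHT against ctrl gave no call in any of the 5 lists by edgeR.

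For each tested gene, the 3 genes whose profile lay nearest were found by the mean absolute difference of centred log2 CPM over the 14 libraries. Nearest to Fos were Filip1l (0.28), Prdm1 (0.31) and Clec2d (0.31), where the median gene lay 0.79 away. Filip1l had 45.6, 39.6 and 107 CPM in ctrl, 69.9, 77.2 and 119 CPM in 4OHT and 165 and 188 CPM in medium. Like Fos it was highest in replicate 3 of each supernatant group but, unlike Fos, it stood higher in medium than in every 4OHT library.

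Nearest to Egr2 were Mmp12 (0.25), Arhgef12 (0.28) and Matk (0.31). Mmp12, which encodes macrophage elastase, held 48.9, 49.0 and 237 CPM in ctrl and 83.3, 77.2 and 269 CPM in 4OHT, with replicate 3 as the high library, as for Egr2. Nearest to Egr1 was Nr1h3 (0.39), which encodes the oxysterol receptor LXR alpha and stood at 4.46, 3.32 and 5.74 CPM in ctrl, 7.16, 7.98 and 24.4 CPM in 4OHT and 21.7 and 19.5 CPM in medium. Angptl4 (0.45) came after it.

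For Atf3 the nearest was Asph (0.14), with 75.7 to 129 CPM in the supernatant libraries and 209.9 and 194 CPM in medium, followed by Glrx and Dot1l (both 0.18). Junb had Sh3kbp1, Rtl5 and Mxd1 within 0.15, Jun had Gla, Rin2 and Creld2 within 0.13, Jund had Kdm2b, Ubr4 and Trappc9 within 0.14, and Ier2 had Dnajc14, Dmac1 and Camkk2 within 0.12. Egr3, whose counts were few, had Phlda1, Zfp493 and Rgs1 at 0.42 to 0.46. These distances are descriptions over libraries that share their groups and replicate numbers.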

How the data were processed

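pBMDMs exposed to MEF supernatants or fresh medium for 24 h were sequenced with the Lexogen QuantSeq kit, which reads transcripts from the 3′ end. The authors aligned reads with STAR 2.7.10a, quantified genes with Salmon 1.5.2 and deposited expected counts, that is estimated counts without normalization. The submitters' processing notes list the builds GRCh38 and GRCm38, the methods name a human genome, and the identifiers are those of mouse genes, so coordinates here are those of GENCODE M21 on GRCm38. A deposited table of the authors' DESeq2 1.36.0 comparisons with 14 columns of CPM was not used.

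Expected counts were rounded (30109 values were not whole), given TMM factors and compared by the quasi-likelihood test of edgeR 4.0.16 (R 4.3.3, Benjamini-Hochberg adjustment over all 12851 genes kept by filterByExpr with a minimum count of 10). The plan had spoken of counts. All 14 samples entered 1 model of group and replicate number, since the study's methods had mouse ID in the design. That the number in the titles is the mouse was assumed, and where it is not, p-values measure only the spread between these samples. Genes were called at an adjusted p under 0.05. The SE of a log2 fold change is its size over the root of F, and log2 CPM used a prior count of 2. DESeq2 1.42.0, median-of-ratios scaling, no filter, no block, fits of only the groups compared, a fold threshold and omissions of samples were run as alternatives, and the scripts were tested on simulated data. TMM factors lay between 0.910 and 1.06. Replicates of a group differed by 10.8 to 80.4 times the sampling noise (chi-square per degree of freedom), so none was counted as a copy. Counting intervals and limits cover counting error only.

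All 10 genes are named. Of the related lists, genes called in any comparison are named, at most 8 per list and comparison by smallest adjusted p. Plk2, the next in its list, was added after its values were seen. The genes and lists were chosen with earlier results of these data known. Promoter windows are from RefSeq, and motifs were searched on both strands. For each tested gene the 3 nearest profiles were sought, and not all of them are reported here.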

Additional observations from a re-analysis of the deposited data

How the results depend on the processing

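With 3 libraries a group, 2 in medium, and from 2 to 10 counts of Egr1 in each ctrl library, small differences were not detectable. The replicate numbers were checked as pairs: deviations from group means correlated above 0.1 in 21 of 26 same-number pairs of libraries (median 0.247), and in 6 of 52 pairs of different number (median -0.139). Same-number libraries were thus more alike as a set, though not in every pair. What the number stands for cannot be read from this, and the block follows the study's design.

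Without the replicate block, 0 of the 9 genes were called in ctrl against medium, and Egr2 (0.073) and Jun (-0.10) changed sign there, as did Egr3 in 4OHT against ctrl (-0.010). All-gene calls without the block fell from 1396 to 523 in ctrl against medium, from 548 to 104 in 4OHT against medium, from 192 to 7 in 4OHT against ctrl, and from 174 to 20 in 4OHT against 4OHT+Fer1. With DESeq2 these were 1746, 859, 418 and 399, and with only the groups compared 2488, 1470, 0 and 37.

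Of the 9 genes, 4OHT against ctrl gave 2 calls with DESeq2 and 2 with no low-count filter. In ctrl against medium 2 passed an absolute log2 fold change above 1. In 4OHT against medium DESeq2 called 1, and a fit of only the groups compared called 4. Leaving out samples gave 0 to 4 calls in ctrl against medium and 0 to 2 in 4OHT against medium. The shares of all genes under the fold threshold, without the filter and under these omissions are not reported here.

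Under the same omissions, log2 fold changes of 4OHT against ctrl ran from -0.30 to 0.39 for Atf3, from -0.57 to 1.02 for Egr3, from -0.088 to 0.43 for Ier2, from -0.20 to 0.15 for Jun and from -0.028 to 0.55 for Jund. For Fos they ran from -0.081 to 0.61 in 4OHT+Fer1 against ctrl and from -0.44 to 0.037 in Fer1 against ctrl. Egr3 could not be fitted without replicate number 2, where it fell under the filter. The cause of these changes was not tested. Over all results, 274 of the other alternatives kept direction and side of the threshold, 35 lost the call, 10 gained it and 3 turned, and of the omissions 299 kept both, 142 lost the call, 3 gained it and 19 turned.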
